A study of Mus musculus with 4 samples.

Results

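The Dnmt3L KO and the Pld6 KO library were set directly against each other, gene by gene. These are 2 of the 4 polyA(+) RNA libraries of the series, and they were chosen by genotype alone. All of them came from leptotene/zygotene (L/Z) spermatocytes, germ cells at the start of meiosis, sorted by fluorescence-activated cell sorting (FACS) from mice 3 to 4 weeks old. The Dnmt3L KO library lacked a working Dnmt3l gene and the Pld6 KO library a working Pld6 gene, both in an F1 hybrid of C57BL6/J and MSM/Ms. The other 2 libraries, a Dnmt3L Het and a Pld6 WT of the same cross and age, served here as a yardstick, since the pair separates the same 2 lines without either homozygous mutation. The mutations were carried in the whole animal, so somatic cells of the testis lacked the gene as well. The F1 animals were bred by crossing each line into MSM/Ms over several generations and then to heterozygotes of the C57BL/6J background, so segments around each targeted gene could differ between the lines. Each genotype had 1 library. No value below has a replicate, and no test between the mutants was possible.

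PLD6 is an outer mitochondrial membrane protein needed to make piRNAs, the small RNAs that guide PIWI proteins to retrotransposon transcripts. DNMT3L is a catalytically inactive partner of the de novo DNA methyltransferases and is needed for methylation of retrotransposons and paternally imprinted regions in fetal male germ cells. In male mice, loss of either gene derepresses retrotransposons and stops germ cells in early meiosis. Sertoli cells are the somatic nurse cells of the seminiferous tubule, and peritubular myoid, Leydig, vascular and immune cells lie outside the germ cell layer.

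The libraries held 49932330 fragments in genes for Dnmt3L KO, 30439943 for Pld6 KO, 63875934 for Dnmt3L Het and 40541149 for Pld6 WT. Of 23980 genes, 18492 (77.1%) had at least 20 fragments over the 4 libraries and were compared. The level of a gene is given as FPKM, fragments scaled to transcript length and library depth. A gene was counted as higher in 1 mutant when its FPKM + 1 was more than 2-fold higher and when the exact 95% counting interval of the ratio of its depth-scaled fragments lay off 1. Such intervals are given in brackets and cover counting error alone, not the spread between animals. In RNA from a bulk fraction, fewer cells of a type and less RNA per cell cannot be told apart.

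The targeted genes followed the labels. In mm10 Pld6 lies on chromosome 11, from 59783893 to 59787657. Its level was 8.55 FPKM in Dnmt3L KO against 0.334 in Pld6 KO, with 17.2 in Dnmt3L Het and 19.5 in Pld6 WT. With 592 against 14 fragments, it was 28.3-fold [16.7, 52.1] higher in Dnmt3L KO than in Pld6 KO. Dnmt3l (chromosome 10, 78042287 to 78063622) had 0 fragments in Dnmt3L KO and 20 fragments (0.432 FPKM) in Pld6 KO, at least 9.97-fold higher in the latter. It was low in all libraries, at 1.27 FPKM in Dnmt3L Het and 0.980 FPKM in Pld6 WT, and was not counted on the FPKM + 1 scale.

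More genes were higher in Dnmt3L KO than in Pld6 KO, and most of them were also higher in the control of the same line. In all, 2206 genes (11.9%) were higher in Dnmt3L KO and 997 genes (5.39%) were higher in Pld6 KO, while the median log2 ratio over all genes was 0. Between the controls, 2626 genes (14.2%) were higher in Dnmt3L Het and 796 genes (4.3%) were higher in Pld6 WT by the same rule. Of the 2206 genes higher in Dnmt3L KO, 1488 (67.5%) were also higher in Dnmt3L Het, against 14.2% of all genes, and 15 were lower there. Of the 2626 genes higher in Dnmt3L Het, the same 1488 made up 56.7%. Of the 997 genes higher in Pld6 KO, 197 (19.8%) were also higher in Pld6 WT, against 4.3% of all genes, and they made up 24.7% of the 796. The 2 contrasts share no library. The ratio between the mutants and the ratio between the controls had a Pearson r of 0.647 across 14258 genes with a mean of at least 1 FPKM, a description only, since genes are not replicates and both ratios hold the difference between the lines.

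**Figure D1:**
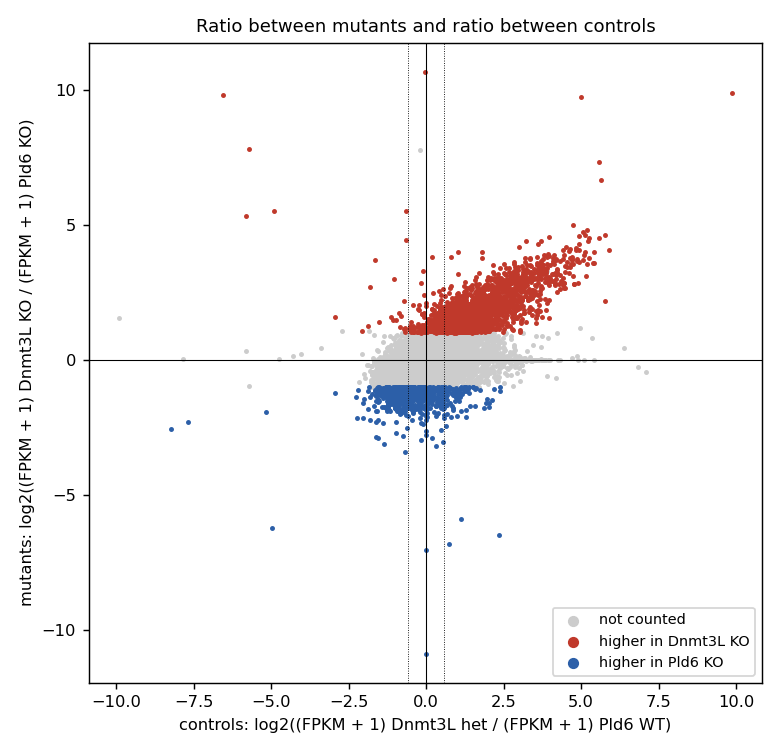
Each point is 1 of 14258 genes with a mean of at least 1 FPKM; the x axis is the log2 ratio of FPKM + 1 of Dnmt3L Het over Pld6 WT and the y axis that of Dnmt3L KO over Pld6 KO, with dotted lines at a control ratio of 1.5-fold. Genes higher in Dnmt3L KO (red) lie mainly to the right, where Dnmt3L Het was also above Pld6 WT, and genes higher in Pld6 KO (blue) are spread on both sides of 0; short RNAs and pseudogenes with few mappable reads are among the points far from the rest.

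Most of the largest differences ran with the line. More than 8-fold differences were seen for 199 genes on the Dnmt3L KO side and for 10 on the Pld6 KO side, and 187 of the 199 were also higher in Dnmt3L Het. Shbg, which encodes an androgen-binding protein secreted by Sertoli cells, was at 176 FPKM in Dnmt3L KO against 5.34 in Pld6 KO, with 137 in Dnmt3L Het and 2.81 in Pld6 WT, a 32.9-fold [28.6, 37.98] difference between the mutants. Eppin, a protease inhibitor of the male tract, was at 262 and 7.42 FPKM in the Dnmt3L KO and Pld6 KO libraries and at 268 and 8.97 FPKM in the Het and WT libraries. Both genes thus split the libraries by line and not by mutation. Serpina5, another serine protease inhibitor, had 268 and 9.96 FPKM in the mutants and 188 and 4.45 FPKM in the controls. The glutaminyl cyclase gene Qpct (217 and 7.22 FPKM in Dnmt3L KO and Pld6 KO), Defb45, Plac1, Gm648 and 8030411F24Rik completed this group, with ratios between the mutants from 26.2-fold to 74.9-fold. Tmsb15b1 and Tmsb15b2, neighbouring near-identical thymosin genes on the X chromosome, had 0 fragments in Pld6 KO and 1119 and 3591 in Dnmt3L KO, but how reads were shared between these copies is not known and their values are uncertain.

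**Figure D2:**
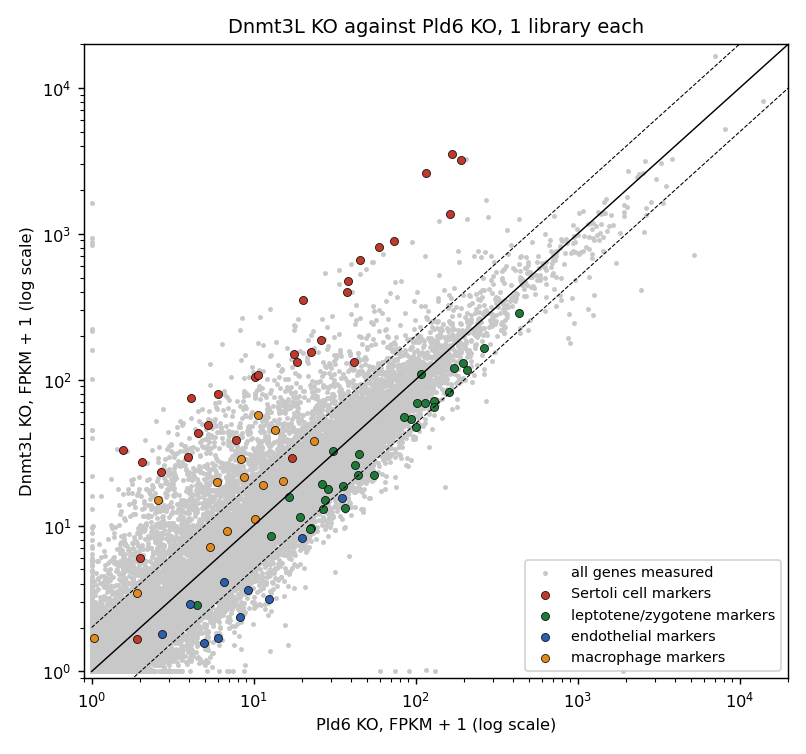
FPKM + 1 of each of the 18492 measured genes in Pld6 KO (x axis) and Dnmt3L KO (y axis), both on log scales; the solid line marks equality and the dashed lines 2-fold. Sertoli cell markers (red) lie above the upper dashed line except for Krt18 and Trf, endothelial markers (blue) lie below equality, and leptotene/zygotene markers (green) lie near or below it.

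Sertoli cell markers were higher in Dnmt3L KO almost throughout. Of 29 genes, 27 were higher in Dnmt3L KO, where 11.9% of all genes were, and none in Pld6 KO. The median ratio was 11.3-fold (interquartile range 8.34 to 15.7), and the median log2 ratio was 3.33, against 0 over all genes. The same 27 were also higher in Dnmt3L Het than in Pld6 WT, where the median log2 ratio was 4.17. Amh, the anti-Müllerian hormone gene, was at 31.9 FPKM in Dnmt3L KO against 0.560 in Pld6 KO, at 26.7 FPKM in Dnmt3L Het and 1.14 FPKM in Pld6 WT. Sox9, the transcription factor that sets Sertoli fate, was at 22.2 and 1.67 FPKM in the mutants and at 14.6 and 0.778 FPKM in the controls. The FSH receptor gene Fshr was 25.2-fold [19.9, 32.4] higher in Dnmt3L KO, from 26.1 against 1.04 FPKM. For each of these genes the Dnmt3L KO and Het libraries were both high and the Pld6 KO and WT libraries both low. Clu, Cst12 and Cst9, abundant secreted products of Sertoli cells, reached 3202, 3542 and 2615 FPKM in Dnmt3L KO and 190, 167 and 114 FPKM in Pld6 KO. Krt18 (0.669 against 0.895 FPKM) and Trf (28.1 against 16.3 FPKM) were the members not counted. The summed FPKM of the list was 15688 in Dnmt3L KO, 1090 in Pld6 KO, 12187 in Dnmt3L Het and 447 in Pld6 WT, so that Pld6 KO was also above its own control. Dnmt3L Het, which has no homozygous mutation, was high as well, so the difference ran with the line, and the line and the sort of its animals cannot be told apart.

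Immune, erythroid and Leydig cell genes were also among those higher in Dnmt3L KO. Of 14 macrophage markers, 6 were higher in Dnmt3L KO, where 11.9% of all genes were. After centring on the L/Z markers 13 of the 14 were, when 4981 of all 18492 genes were counted so. Among the 6 were H2-Aa, an MHC class II chain (55.8 against 9.64 FPKM), Tyrobp, an adaptor of myeloid receptors (14.0 against 1.56 FPKM), and the mannose receptor gene Mrc1 (18.9 against 4.95 FPKM). Of the 6, 5 were also higher in Dnmt3L Het. Of 6 erythroid genes measured, 4 were higher in Dnmt3L KO and in Dnmt3L Het, with the globin gene Hbb-b1 at 74.6 FPKM in Dnmt3L KO against 5.88 in Pld6 KO, with 350 in Dnmt3L Het and 14.7 in Pld6 WT. Of 9 Leydig cell genes, 2 were higher in Dnmt3L KO, Nr5a1 (65.3 against 7.90 FPKM) and Hsd3b1 (37.3 against 3.80 FPKM). The defining Leydig hormone gene Insl3 was much closer, at 198 and 142 FPKM, and Cyp17a1, an enzyme of androgen synthesis, was at 28.5 FPKM in Dnmt3L KO against 41.0 in Pld6 KO. Nr5a1 is also used by Sertoli cells. Between the controls 8 of the 9 were higher in Dnmt3L Het, with a median log2 ratio of 2.92 and Insl3 at 202 against 14.7 FPKM. After centring on the L/Z markers 7 of the 9 were higher in Dnmt3L KO, with a median of 1.25 in place of 0.53. The median of all genes then went from 0 to 0.47.

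Vascular and muscle genes went the other way. Of 10 endothelial markers, 7 were higher in Pld6 KO and none in Dnmt3L KO, where 5.39% and 11.9% of all genes were. The endothelial median log2 ratio of Dnmt3L KO over Pld6 KO was -1.30, against -0.03 between the controls. The angiopoietin receptor gene Tek was at 0.684 FPKM in Dnmt3L KO against 5.06 in Pld6 KO, with 0.983 in Dnmt3L Het and 1.39 in Pld6 WT. Vwf, the von Willebrand factor gene, was at 0.577 and 3.97 FPKM in the mutants and 1.41 and 1.32 FPKM in the controls, and the junction gene Pecam1 at 1.37 and 7.23 FPKM and at 2.43 and 2.14 FPKM. In all of these the Pld6 KO library stood above the other 3, and Dnmt3L KO was the lowest. All 9 peritubular myoid markers had a ratio below 1, and Tagln (45.0 against 126 FPKM) and Synpo2 (0.351 against 1.87 FPKM) were counted as higher in Pld6 KO. The smooth muscle actin gene Acta2 was at 206 and 349 FPKM in the mutants but at 360 FPKM in Dnmt3L Het and 75.2 FPKM in Pld6 WT. With the libraries centred on L/Z markers, 4 of the 10 endothelial and 0 of the 9 myoid markers were counted as higher in Pld6 KO, with medians of -0.69 and -0.02. Over all 18492 genes the median was then 0.47, and 292 were counted as higher in Pld6 KO.

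B cell genes were seen in Pld6 KO. Cd79a, a chain of the B cell receptor complex, reached 7.88 FPKM from 281 fragments in Pld6 KO against 0.113 FPKM from 6 fragments in Dnmt3L KO, with 0.548 FPKM in Dnmt3L Het and 0.742 FPKM in Pld6 WT. Its partner Cd79b was at 3.52 FPKM in Pld6 KO against 0.254 in Dnmt3L KO, and Ms4a1, which encodes CD20, at 1.41 and 0.171 FPKM. These were the 3 counted genes of 11 lymphocyte markers measured, all higher in Pld6 KO, where 5.39% of all genes were. T cell genes did not follow, with Cd3e at 2.96 FPKM in Dnmt3L KO against 3.04 in Pld6 KO. Cd79a and Cd79b were under 1 FPKM in both controls, while Ms4a1 was at 1.20 FPKM in Dnmt3L Het and 0.490 FPKM in Pld6 WT. The summed FPKM of the lymphocyte list was 13.6 for Dnmt3L KO, 27.8 for Pld6 KO, 15.1 for Dnmt3L Het and 15.2 for Pld6 WT, and the part of B cells in other differences was not tested.

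**Figure D3:**
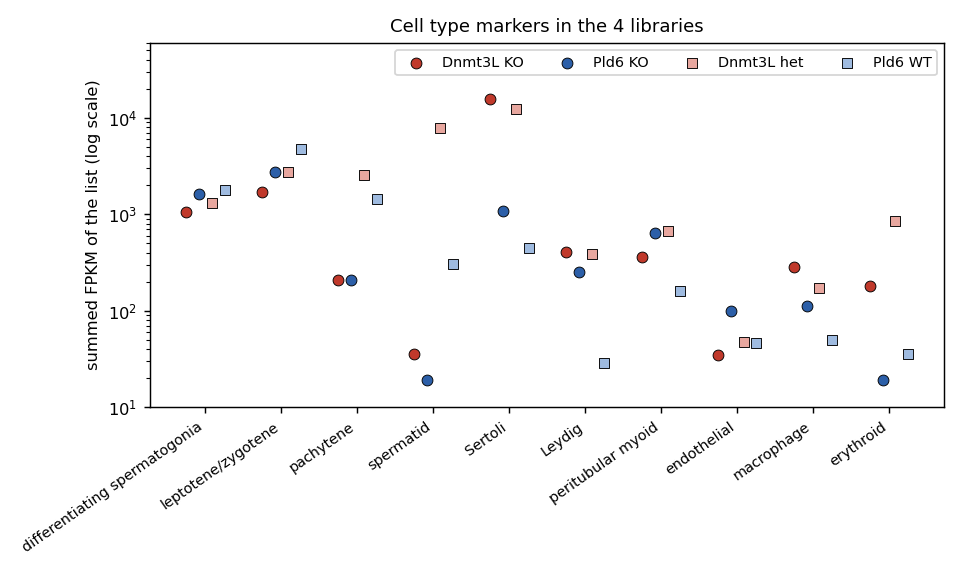
Summed FPKM (log scale) is plotted for 10 cell type marker lists in Dnmt3L KO and Pld6 KO (circles) and in Dnmt3L Het and Pld6 WT (squares), 1 library each. Sertoli and erythroid sums are high in both libraries of the Dnmt3L line, the endothelial sum is highest in Pld6 KO, and pachytene and spermatid sums are low in both mutants.

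Germ cell markers of the labelled stage were lower in Dnmt3L KO. Of 31 L/Z markers measured, 6 were higher in Pld6 KO and none in Dnmt3L KO, where 5.39% and 11.9% of all genes were. The ratio was below 1 for 29 of the 31, and the median log2 ratio was -0.74. Their summed FPKM was 1697 in Dnmt3L KO, 2760 in Pld6 KO, 2758 in Dnmt3L Het and 4770 in Pld6 WT. The sum was thus lower in the Dnmt3L line in both pairs, and the Sertoli sum was higher in it in both. Between the controls 17 of the 31 were higher in Pld6 WT, with a median log2 ratio of -1.04. The libraries were also centred on the L/Z markers instead. This changed the scaling factor by 0.73 on the log2 scale and took the median log2 ratio of all genes from 0 to 0.47. None of the 31 was then counted in either direction, which centring on these same genes largely fixes in advance. The counts over all genes became 4981 higher in Dnmt3L KO and 292 higher in Pld6 KO. The same centring took the medians of several lists described further on from below to above 0, to 0.29 for undifferentiated spermatogonia, 0.45 for pachytene, 0.25 for DNA methylation and 0.28 for histone-based silencing genes. All of these stayed below the 0.47 of all genes, so crossing 0 here is no change of direction relative to all genes.

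The 6 L/Z markers counted were Msh5, Spo11, Dmc1, Meiob, Ccdc36 and 4930432K21Rik. Msh5, a MutS homologue that stabilises crossover intermediates, was at 12.2 FPKM in Dnmt3L KO against 35.4 in Pld6 KO, with 16.2 in Dnmt3L Het and 67.9 in Pld6 WT. Spo11, the enzyme that makes meiotic double-strand breaks, was at 8.64 and 21.6 FPKM in the mutants and 21.8 and 50.9 FPKM in the controls. The recombinase gene Dmc1 was at 46.5 and 99.6 FPKM in the mutants and 59.8 and 162 FPKM in the controls. Meiob, which binds single-stranded DNA, Ccdc36 (also called Iho1), needed for break formation, and 4930432K21Rik (also called Brme1), a BRCA2-associated meiotic factor, were at 2.56-fold [2.40, 2.73], 2.14-fold [2.003, 2.29] and 2.47-fold [2.27, 2.69] higher in Pld6 KO. Other recombination genes of the list were not counted, such as Msh4 (7.48 against 11.8 FPKM), Spata22 (29.97 against 43.96 FPKM) and Mnd1 (14.7 against 15.5 FPKM). The axial and synaptonemal genes Stag3 (81.2 against 160.2 FPKM), Sycp2 (70.2 against 128 FPKM), Sycp3 (285 against 431 FPKM) and Sycp1 (119 against 171 FPKM) were not counted either. The cohesin gene Rec8 (31.2 against 30.0 FPKM) and the central element gene Tex12 (109 against 107 FPKM) had intervals of the ratio that included 1, which were 0.980 to 1.11 for Rec8 and 0.9504 to 1.09 for Tex12.

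Spermatogonial genes held members in both directions, while over all genes 11.9% were higher in Dnmt3L KO and 5.39% in Pld6 KO. Among 14 differentiating spermatogonia markers, Kit, Prss50 and Dnmt3b were higher in Pld6 KO and none in Dnmt3L KO. Their median log2 ratio of -0.65 became 0.08 after centring on the L/Z markers, where that of all genes was 0.47. Kit, the receptor that marks differentiating spermatogonia, was at 24.8 FPKM in Dnmt3L KO against 86.4 in Pld6 KO, with 16.02 in Dnmt3L Het and 40.4 in Pld6 WT, while its ligand gene Kitl, a Sertoli product, was at 42.2, 3.51, 15.6 and 1.22 FPKM in the same order. The receptor and the ligand therefore ran in opposite directions between the mutants. Among 18 undifferentiated spermatogonia markers, the progenitor factors Neurog3 (0.599 against 4.596 FPKM), Egr4 (5.60 against 16.7 FPKM) and Nanos3 (4.24 against 10.7 FPKM) were higher in Pld6 KO. Higher in Dnmt3L KO were 2 of the 18, near the share of all genes. Etv5, a transcription factor of stem cell self-renewal that Sertoli cells also use, was at 24.1 FPKM in Dnmt3L KO against 10.4 in Pld6 KO, and Tspan8 at 3.80 and 1.34 FPKM. The GDNF receptor gene Gfra1, a defining member, was at 10.8 and 12.8 FPKM and was not counted. Neurog3 and Egr4 were also higher in Pld6 WT than in Dnmt3L Het, and Nanos3 was not.

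The summed RNA of later-stage markers was low in both mutants, though not that of every member. The summed FPKM of 22 pachytene markers was 206 and 210 in Dnmt3L KO and Pld6 KO, and 2526 and 1453 in Dnmt3L Het and Pld6 WT, and that of 26 spermatid markers was 35.5 and 19.3, against 7765 and 305. The median log2 ratio between the mutants was -0.07 for pachytene and 0.00 for spermatid markers. Protamine 1 (Prm1), which packs sperm DNA, was at 1.81 and 2.87 FPKM in the mutants and at 2372 and 16.3 FPKM in the controls. Ldhc, the germ cell lactate dehydrogenase, was at 2.80 and 1.91 FPKM, against 623 and 304 FPKM. Mybl1, also on the pachytene list, was not low, at 15.7 and 16.9 FPKM in the mutants and 13.7 and 24.7 FPKM in the controls. Tbpl1 of the same list was at 21.5 FPKM in each mutant and at 49.1 and 43.5 FPKM in the controls. Of the 22 pachytene markers 2, and of the 26 spermatid markers 2, were higher in Dnmt3L KO, where 11.9% of all genes were. Meig1, needed to build the sperm tail, was at 43.4 FPKM in Dnmt3L KO against 6.01 in Pld6 KO, with 616 in Dnmt3L Het and 231 in Pld6 WT. Spaca1, an acrosomal membrane protein, was at 15.3 and 3.15 FPKM, with 21.7 FPKM in each control. Slc2a3, a glucose transporter gene, was at 8.61 and 2.49 FPKM, with 52.0 and 44.6 FPKM in the controls. The transition protein gene Tnp1 was at 7.83 FPKM (83 fragments) and 0.987 FPKM (7 fragments), with 2007 and 35.5 FPKM in the controls. Meig1 and Tnp1 were also higher in Dnmt3L Het. Ybx2, an RNA-binding protein that stores germ cell transcripts, was the member higher in Pld6 KO, at 57.7 FPKM against 25.99 FPKM.

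**Figure D4:**
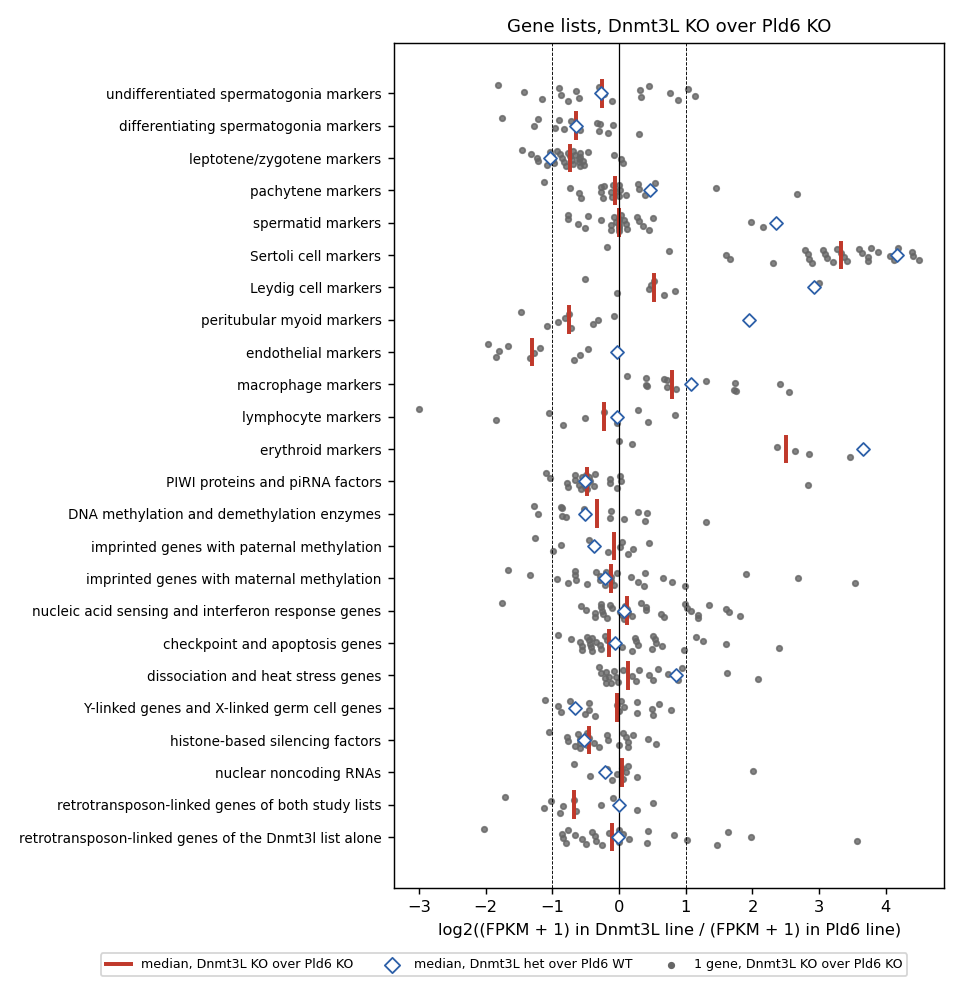
Each grey point is the log2 ratio of FPKM + 1 of Dnmt3L KO over Pld6 KO of 1 gene, by list; red bars are list medians for the mutants, blue diamonds list medians for Dnmt3L Het over Pld6 WT, and dashed lines mark 2-fold. Bar and diamond are both far to the right for the Sertoli list (3.33 and 4.17), nearly coincide for the piRNA list (-0.48 and -0.50) and lie far apart for peritubular myoid (-0.75 and 1.95), spermatid (0.00 and 2.35) and endothelial markers (-1.30 and -0.03).

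Over all genes, 17.3% were counted in either direction, and the piRNA list had 3 such members. Of 25 PIWI proteins and piRNA factors, Pld6 was the only member higher in Dnmt3L KO, and Mov10l1, the helicase that feeds piRNA precursors to processing, and Btbd18, a nuclear factor for piRNA cluster transcription, were higher in Pld6 KO. Mov10l1 was at 52.3 FPKM in Dnmt3L KO against 113 in Pld6 KO, with 54.6 in Dnmt3L Het and 104 in Pld6 WT, lower in the Dnmt3L line in both pairs. The PIWI genes Piwil2 (52.2 against 74.5 FPKM) and Piwil4 (3.12 against 6.02 FPKM) were not counted. Asz1, another mitochondrial piRNA factor, was at 43.4 and 42.2 FPKM, and the cochaperone gene Fkbp6 at 226 and 231 FPKM. The list median was -0.48 between the mutants and -0.50 between the controls. After centring on the L/Z markers the median between the mutants became 0.24, against 0.47 over all genes.

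Of 14 DNA methylation genes 3 were counted, near the 17.3% of all genes. Dnmt3b was at 18.6 FPKM in Dnmt3L KO against 44.2 in Pld6 KO, and likewise lower in Dnmt3L Het (13.4 FPKM) than in Pld6 WT (35.3 FPKM). Tdg, a glycosylase that removes oxidised methylcytosine, was at 1.34 and 4.64 FPKM in the mutants and 1.49 and 2.39 FPKM in the controls. Tet2, one of the enzymes that oxidise methylcytosine, was the member higher in Dnmt3L KO, at 3.58 FPKM against 0.853 FPKM, with 1.03 FPKM in Dnmt3L Het and 0.495 FPKM in Pld6 WT. The catalytic partner of DNMT3L, Dnmt3a, was at 17.6 and 14.2 FPKM, and the maintenance gene Dnmt1 at 56.8 and 103 FPKM, both not counted. Of 25 histone-based silencing factors, Zfp42 (3.18 against 7.61 FPKM) was the member counted, and Setdb1 (55.7 against 96.3 FPKM) and Trim28 (149 against 208 FPKM) were not.

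Imprinted genes with methylation set in the paternal germ line, the class that depends on DNMT3L there, gave no common direction. Of 10 such genes, Dlk1 was higher in Pld6 KO (3.02 against 8.66 FPKM), and none was higher in Dnmt3L KO. H19, a maternally expressed noncoding RNA, was at 7.87 and 15.2 FPKM in the mutants and at 6.81 and 19.8 FPKM in the controls, and Igf2, a growth factor gene of the same domain, at 11.9 and 8.41 FPKM in the mutants. Of 27 genes with maternal methylation, Snrpn, Peg10 and Gnas were higher in Dnmt3L KO and Phlda2 and Nnat in Pld6 KO, shares near the 11.9% and 5.39% of all genes. Snrpn, a splicing protein gene, was at 34.5 FPKM in Dnmt3L KO against 2.07 in Pld6 KO, with 30.9 in Dnmt3L Het and 3.47 in Pld6 WT. All 3 genes higher in Dnmt3L KO were also higher in Dnmt3L Het, and Phlda2 and Nnat were under 1.5-fold apart between the controls.

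Several interferon and nucleic acid sensing genes were higher in Dnmt3L KO. Of 33 genes measured, 8 were higher there, where 11.9% of all genes were, and Cxcl10, a chemokine gene, was higher in Pld6 KO, while the list median was 0.11, against 0.08 between the controls. Among the 8 were Eif2ak2, Usp18, Mavs, Tlr3, Ifih1 and Isg15. Eif2ak2, the kinase PKR that senses double-stranded RNA, was at 5.99 FPKM in Dnmt3L KO against 0.994 in Pld6 KO, with 3.36 in Dnmt3L Het and 1.17 in Pld6 WT. Usp18, an interferon-induced brake on the pathway, was at 4.14 FPKM in Dnmt3L KO against 0.643 in Pld6 KO, with 0.952 and 0.751 FPKM in the controls, a 6.44-fold [4.47, 9.58] difference between the mutants. The RNA sensor gene Ifih1 was at 2.80 and 0.805 FPKM in the mutants and 1.501 and 0.623 FPKM in the controls. Of the 8, 2 were also higher in Dnmt3L Het, Eif2ak2 among them, and the macrophage sum was 282 FPKM in Dnmt3L KO, 111 in Pld6 KO, 170 in Dnmt3L Het and 50.1 in Pld6 WT. The part of macrophages and Sertoli cells in these values was not tested. Of the other inducible targets, Ifit1 was at 0.0952 and 0 FPKM, Mx1 at 0.513 and 0.657 FPKM and Rsad2 at 1.92 and 1.83 FPKM in Dnmt3L KO and Pld6 KO.

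Checkpoint and stress genes were counted at about the share of all genes, 11.9% of which were higher in Dnmt3L KO. Of 32 checkpoint and apoptosis genes, Sesn2, Bak1, Gadd45b and Gadd45g were higher in Dnmt3L KO, all 4 also in Dnmt3L Het, and none was higher in Pld6 KO. The p53 target Sesn2 was at 63.9 FPKM in Dnmt3L KO against 11.3 in Pld6 KO, with 37.3 in Dnmt3L Het and 13.1 in Pld6 WT, and Trp53 itself was at 50.6, 34.6, 28.7 and 18.4 FPKM. The checkpoint kinase gene Atm was at 23.8 FPKM in Dnmt3L KO against 35.3 in Pld6 KO. Of 22 dissociation and heat stress genes, Klf6 (32.1 against 9.77 FPKM) and Hspb1 (195 against 45.2 FPKM) were higher in Dnmt3L KO and also in Dnmt3L Het, and the immediate early gene Fos was at 181 and 182 FPKM. Among 11 nuclear noncoding RNAs the counted member was Malat1, at 156 FPKM in Dnmt3L KO against 37.9 in Pld6 KO, with 23.6 in Dnmt3L Het and 32.3 in Pld6 WT. The paraspeckle RNA Neat1 was at 9.69 and 8.96 FPKM in the mutants. The high level of Malat1 was therefore seen in Dnmt3L KO and in no other library.

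Genes that the study linked to an activated L1 or LTR retrotransposon did not share a direction. The study had picked them in C57BL/6J animals, from 1 list for each mutant, and the lists share 11 genes. Of these 11, Reg2, Il23r and Sncaip were higher in Pld6 KO and none in Dnmt3L KO, where 5.39% and 11.9% of all genes were. The ratio was below 1 for 9 of the 11, and the median log2 ratio was -0.68, against 0.00 between the controls. After centring on the L/Z markers, where that of all genes was 0.47, the median of these 11 was -0.34. Their summed FPKM was 12.5 in Dnmt3L KO, 32.6 in Pld6 KO, 4.34 in Dnmt3L Het and 3.75 in Pld6 WT. Reg2, a secreted lectin gene linked to an L1Md_T copy, was at 3.83 FPKM in Dnmt3L KO against 14.8 in Pld6 KO and had 0 fragments in both controls. Il23r, a cytokine receptor gene, had 75 fragments (1.03 FPKM) in Pld6 KO and none elsewhere, a Pld6 KO level at least 37.4-fold above that of Dnmt3L KO. Gc, the vitamin D-binding protein gene, was at 2.23 FPKM in Dnmt3L KO against 4.96 in Pld6 KO, again with 0 fragments in both controls. Robo2, an axon guidance receptor gene, was at 0.263 and 0.973 FPKM in the mutants and at 0.0196 and 0.0313 FPKM in the controls. Apart from Il23r, the genes named here thus held fragments in both mutants and more per depth in Pld6 KO.

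Over both study lists, the 22 L1-linked genes measured had 4 members higher in Pld6 KO and 1 higher in Dnmt3L KO. Over all genes, 5.39% and 11.9% were counted so. The L1-linked median log2 ratio of -0.57 became -0.10 after centring on the L/Z markers, where that of all genes was 0.47. Higher in Pld6 KO, besides Reg2, Il23r and Sncaip, was Abcb1a, a drug efflux transporter gene. It was at 0.852 FPKM in Dnmt3L KO against 6.56 in Pld6 KO, with 2.21 in Dnmt3L Het and 2.25 in Pld6 WT. Abcb1a is also used by endothelial cells, whose summed markers were 34.9 FPKM in Dnmt3L KO against 99.0 in Pld6 KO. The part of endothelial cells in the Abcb1a values was not tested. The member higher in Dnmt3L KO, 4930486L24Rik, was at 35.3 and 2.07 FPKM in the mutants and at 19.99 and 0.231 FPKM in the controls, the split by line seen for Sertoli genes. Among 16 LTR-linked genes, Apoh, Eps8l1, Gm5934 and E330017A01Rik were higher in Dnmt3L KO and none in Pld6 KO, with a median log2 ratio of 0.11. E330017A01Rik, linked to an IAPEZ copy, had 40 fragments (1.78 FPKM) in Dnmt3L KO and none elsewhere, which put Dnmt3L KO at least 8.92-fold above Pld6 KO. Apoh, a plasma glycoprotein gene also linked to an IAPEZ copy, was at 9.52 FPKM in Dnmt3L KO against 1.67 in Pld6 KO, with 5.28 in Dnmt3L Het and 2.62 in Pld6 WT. Eps8l1 was also higher in Dnmt3L Het, and the other 3 were not counted between the controls.

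**Figure D5:**
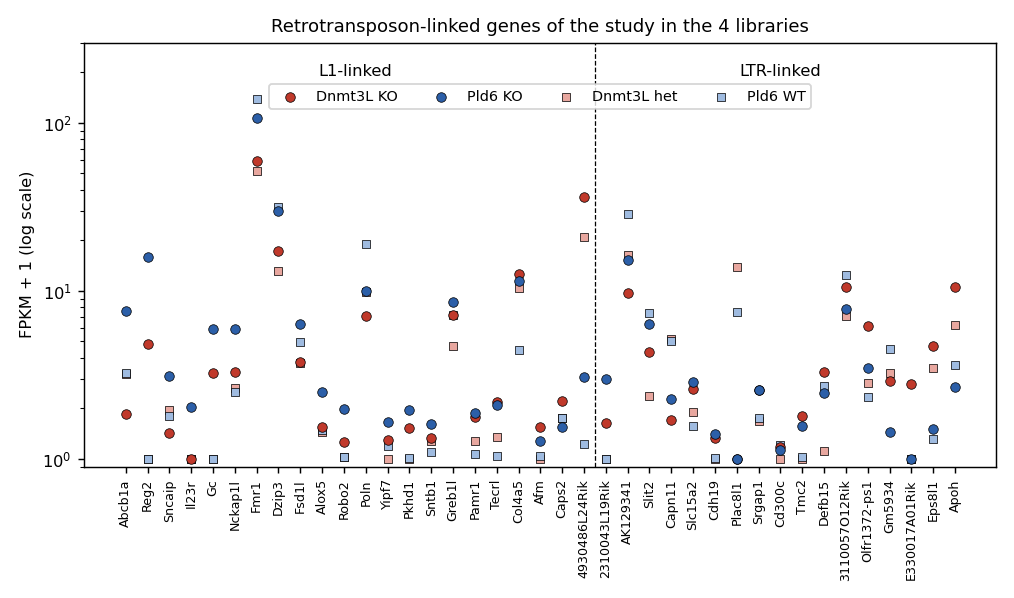
FPKM + 1 (log scale) of the 22 L1-linked and 17 LTR-linked genes of the study in Dnmt3L KO and Pld6 KO (circles) and in Dnmt3L Het and Pld6 WT (squares), ordered by the ratio between the mutants within each class. Toward the left of the L1-linked class Pld6 KO lies above Dnmt3L KO, as for Reg2 (14.8 against 3.83 FPKM), and at the right of the LTR-linked class Dnmt3L KO lies above Pld6 KO, as for Apoh (9.52 against 1.67 FPKM).

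To see differences that did not run with the lines, genes were kept whose FPKM + 1 differed by less than 1.5-fold between Dnmt3L Het and Pld6 WT. Among 11366 such genes, 339 (2.98%) were higher in Dnmt3L KO and 447 (3.93%) were higher in Pld6 KO. The limit largely sets this balance in advance, since it drops more genes of the Dnmt3L KO side. Of the 2206 genes on that side 1488 were also higher in Dnmt3L Het, against 197 of 997 also higher in Pld6 WT. Counts for this subset with centring on the L/Z markers are not given. On the Pld6 KO side the largest ratios of FPKM + 1 were those of Tm4sf1 (0.372 against 11.6 FPKM), a membrane protein gene abundant in endothelium, and of the elastin gene Eln. Eln was at 17.4 FPKM in Dnmt3L KO against 150 in Pld6 KO, with 37.7 in Dnmt3L Het and 25.3 in Pld6 WT, and so had a ratio of Pld6 KO over Dnmt3L KO of 8.63-fold [8.30, 8.98]. The epithelial keratin gene Krt7 was at 0.0762 and 4.56 FPKM, Hoxb7, a homeobox gene, at 0 and 4.14 FPKM, and Lfng, which modifies Notch receptors, at 0.740 and 7.15 FPKM. Ly6d, a surface protein of lymphoid and epithelial cells, had 91 fragments (5.87 FPKM) in Pld6 KO and 0 fragments in the other 3 libraries. The secreted Wnt modulator gene Sfrp2 (1.09 against 14.6 FPKM) and the calcium-binding protein gene S100a4 (0 against 6.06 FPKM) were among the largest ratios without the limit on the controls. Cd79a, described above, Defb47 and the histone gene Hist1h2aa, whose family shares sequence, were further genes alike between the controls. Of the genes above, Ly6d, Krt7 and Hoxb7 were at or under 0.713 FPKM in every other library.

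Gm128 was higher in both controls than in either mutant. It was at 47.4 FPKM in Dnmt3L Het and 33.7 FPKM in Pld6 WT, lower in Pld6 KO with 5.10 FPKM from 205 fragments, and without a fragment in Dnmt3L KO. Pld6 KO was thus at least 102-fold higher than Dnmt3L KO. On the Dnmt3L KO side of the same 11366 genes, Wfdc18, a gene of the whey acidic protein family, had 140 fragments (8.64 FPKM) in Dnmt3L KO, 0 fragments in Pld6 KO and in Dnmt3L Het and 1 fragment in Pld6 WT, at least 31.2-fold higher than in Pld6 KO. Trank1 was at 97.0 FPKM in Dnmt3L KO and at 21.8, 27.8 and 20.2 FPKM in Pld6 KO, Dnmt3L Het and Pld6 WT, a 4.46-fold [4.35, 4.57] difference between the mutants on 47475 and 7120 fragments. Fxyd3, a regulator of the sodium pump, had 72 fragments against 1, a ratio of 48.2 [8.37, 1928], and Spink3, a protease inhibitor gene, 41 against 0. Rcor3, a corepressor subunit gene, was at 12.9 FPKM in Dnmt3L KO against 1.98 in Pld6 KO, with 10.9 and 7.53 FPKM in the controls, so that Pld6 KO was the low library. Erdr1 was at 1261 and 207 FPKM in the mutants and 85.3 and 57.9 FPKM in the controls, higher in both mutants. Erdr1, the multicopy gene Speer4a and 4930572O03Rik lie in repeated sequence and are uncertain, as is the proton pump gene Atp6v0c (240 against 41.0 FPKM), whose processed copy Atp6v0c-ps2 had 1 fragment in Dnmt3L KO and 3321 in Pld6 KO, the opposite split.

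Few genes that were silent in the controls reached 1 FPKM in a mutant. Among 534 genes under 0.1 FPKM in both controls, 5 reached 1 FPKM in both mutants, 13 in Dnmt3L KO alone and 16 in Pld6 KO alone. Of the 534, 12 were counted as higher in each mutant, against 11.9% of all genes for Dnmt3L KO and 5.39% for Pld6 KO. The rule on FPKM + 1 needs more than 1 FPKM in the higher mutant, so few of these genes could be counted. The filter of 20 fragments over the 4 libraries also admits such genes through the mutant where they were high. Defb48, for example, had 35 fragments in Dnmt3L KO and 0 in each other library. The number of silent genes and the counts among them therefore follow in part from the filter. Reg2 and Gc were among the 5. Wfdc18, Spink3, Defb48, Olfr39 and E330017A01Rik were among the 13, each with 0 fragments in Pld6 KO, and Ly6d, Cd79b, Il23r, Hoxb6 and Ky among the 16, names that were picked after the values were seen. Ky was also read in Dnmt3L KO, with 220 fragments (0.884 FPKM). Taking fragments alone, 359 genes had at least 20 in Dnmt3L KO and 0 in Pld6 KO, and 138 had at least 20 in Pld6 KO and 0 in Dnmt3L KO. Of these, 36 and 15 had at most 3 fragments in each control.

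The start regions of Wfdc18, Gm128 and Il23r, examples of genes read in 1 mutant and at 0 in the other, and of Reg2, at 0 in both controls, are shown because the methyltransferases that DNMT3L assists methylate CG dinucleotides. These examples were picked after the values were seen. They are RefSeq windows (GRCm38.p6) of 300 bases, from 250 before to 50 after the annotated start, printed 5′ to 3′ on the gene's strand, with each CG in capitals: Wfdc18 (chr11:83708754-83709053, plus strand), Gm128 (chr3:95241060-95241359, minus strand), Il23r (chr6:67491806-67492105, minus strand) and Reg2 (chr6:78404905-78405204, plus strand). The Gm128 window lies inside the RefSeq span of its gene (95236919 to 95241635) and not at the outer 5′ end of that span, unlike the other windows. For Il23r and Reg2 transcription may begin at the linked L1 instead of the annotated start.
Wfdc18: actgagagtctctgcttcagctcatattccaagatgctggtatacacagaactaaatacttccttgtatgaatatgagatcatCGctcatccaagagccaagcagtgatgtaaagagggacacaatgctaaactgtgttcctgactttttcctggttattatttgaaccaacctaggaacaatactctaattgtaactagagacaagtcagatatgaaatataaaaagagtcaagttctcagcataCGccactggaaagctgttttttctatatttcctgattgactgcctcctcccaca
Gm128: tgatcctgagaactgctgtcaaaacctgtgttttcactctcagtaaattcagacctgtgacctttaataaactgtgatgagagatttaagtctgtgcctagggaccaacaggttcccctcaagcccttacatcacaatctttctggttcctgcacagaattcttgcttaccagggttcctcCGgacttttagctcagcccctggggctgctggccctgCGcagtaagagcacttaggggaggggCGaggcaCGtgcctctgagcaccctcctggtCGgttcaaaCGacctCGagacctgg
Il23r: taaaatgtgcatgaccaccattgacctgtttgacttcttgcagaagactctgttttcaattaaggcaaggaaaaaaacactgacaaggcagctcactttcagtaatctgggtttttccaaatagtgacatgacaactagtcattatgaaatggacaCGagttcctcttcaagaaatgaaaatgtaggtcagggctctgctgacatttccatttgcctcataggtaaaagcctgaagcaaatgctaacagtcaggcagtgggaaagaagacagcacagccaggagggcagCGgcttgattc
Reg2: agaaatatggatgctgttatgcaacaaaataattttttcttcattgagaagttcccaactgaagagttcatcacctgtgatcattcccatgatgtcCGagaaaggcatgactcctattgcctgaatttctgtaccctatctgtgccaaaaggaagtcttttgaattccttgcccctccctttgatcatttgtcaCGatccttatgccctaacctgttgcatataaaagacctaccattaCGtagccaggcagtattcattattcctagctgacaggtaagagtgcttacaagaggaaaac
The windows held 2, 7, 2 and 3 CG dinucleotides in this order. A window was found for 14408 of the 18492 genes (77.9%), with a median of 17 CG. Windows with 3 or fewer CG made up 11.6% of these. A window was found for 79.1% of the genes higher in Dnmt3L KO and 75.3% of those higher in Pld6 KO. A comparison of CG content between the sides is not given.

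X-linked genes had a larger share higher in the Dnmt3L line in both pairs. Of 852 X-linked genes measured, 195 (22.9%) were higher in Dnmt3L KO and 37 (4.34%) in Pld6 KO, while on single autosomes 8.98% to 15.2% were higher in Dnmt3L KO. Between the controls 27.0% of X-linked genes were higher in Dnmt3L Het. Of 35 Y-linked genes, 0 were counted in either direction by the same rule. Among 19 Y-linked and X-linked germ cell genes, Fthl17 was higher in Pld6 KO (33.5 against 14.9 FPKM) and none in Dnmt3L KO.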

How the data were processed

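PolyA(+) RNA of FACS-sorted L/Z spermatocytes was sequenced by the authors as stranded libraries of 50 bp single-end reads. The submitters' processing notes name TopHat, Cuffdiff and mm10, in versions not given in the sources used here, and whether counting used strand is not stated. The deposited table gives, for 23980 genes and 4 libraries, the authors' estimated counts of fragments before scaling, a signal column of the same fragments scaled to library depth, and FPKM. The 31 values the authors' tool marked as failed were kept, 29 of them in genes that were compared. Groups were taken from the genotype labels.

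Ratios were computed as log2((FPKM + 1)/(FPKM + 1)), a scale that understates differences of low genes, among genes with at least 20 fragments over the 4 libraries. Counting intervals were exact conditional binomial (Clopper-Pearson, 95%) intervals of fragments rounded to whole numbers and divided by the library factors implied by the deposited scaled fragments. A count of 0 was given a floor of 3 fragments per library, and such folds are lower bounds. With 1 library a side no test was run. Reads carried no molecular identifiers, so intervals and floors cover counting error only. The counting step was tested on simulated data.

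Genes named are counted or defining members of the lists, and the 10 largest and 10 smallest ratios, short RNAs left out, among all counted genes and among those under 1.5-fold apart between the controls. Hist1h4d and Hist1h4m met this rule but share reads with other histone genes, and genes named outside the rule are said to be so or stand beside a member. The members and lists were chosen with earlier results of these data known. The study's retrotransposon-linked lists came from other libraries. Positions and start windows were from RefSeq (GRCm38.p6), matched by symbol for 18409 genes (99.6%). Alternatives were another pseudocount, scaling, filter and threshold. Analyses used Python 3.11.15, pandas 2.3.3, scipy 1.17.1 and, for TMM factors alone, edgeR 4.0.16 in R 4.3.3. Some members of the lists are counted but not reported here by name.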

Additional observations from a re-analysis of the deposited data

Results flagged for a closer look

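The peritubular myoid list had opposite signs in the 2 pairs that separate the lines. Its median log2 ratio of FPKM + 1 was -0.75 for Dnmt3L KO over Pld6 KO, with all 9 members below 0, and 1.95 for Dnmt3L Het over Pld6 WT, where 7 of 9 were counted as higher in Dnmt3L Het. The difference between the pairs was not tested, for want of replicates. The summed FPKM was 365 in Dnmt3L KO, 642 in Pld6 KO, 672 in Dnmt3L Het and 160 in Pld6 WT, so Pld6 KO and Dnmt3L Het were the high libraries.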

How the results depend on the processing

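The 2206 genes higher in Dnmt3L KO and the 997 higher in Pld6 KO stayed within 1.5 times under scaling to total fragments (1933 and 1329), TMM scaling (2263 and 916), no filter on low values (2226 and 1014), a mean of at least 1 FPKM (2093 and 925), no short RNAs (2185 and 974) and no counting interval (2213 and 1000). They became 3372 and 2364 with a pseudocount of 0.1 FPKM, 4981 and 292 with centring on the L/Z markers, 1144 and 186 with a 3-fold threshold, and 339 and 447 among genes under 1.5-fold apart between the controls. Scaling to total fragments changed the scaling factor by -0.13 and TMM by 0.04 on the log2 scale, and the median log2 ratio of all genes became -0.06 and 0. Centring on the L/Z markers moved 16 of 28 list medians by at least 0.5, while the median of all genes went from 0 to 0.47. That of the differentiating spermatogonia markers turned from -0.65 to 0.0796, still below that of all genes. The Sertoli (4.05) and endothelial (-0.69) medians kept their signs under this centring, and the peritubular myoid median was -0.02. No paired analysis was possible because each genotype has 1 library. The lower depth of Pld6 KO limits what a count of 0 there shows.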

Other observations

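The families below were picked after the values were seen, and over all genes 11.9% were higher in Dnmt3L KO and 5.39% in Pld6 KO. Of 358 zinc finger genes with a Zfp name, 36 were higher in Dnmt3L KO and 9 in Pld6 KO, while 17 were higher in Dnmt3L Het and 15 in Pld6 WT. Of 30 Rhox homeobox genes on the X chromosome, 7 were higher in Dnmt3L KO and 3 in Pld6 KO, and between the controls the counts were 7 and 1. Of 65 clustered histone genes, which share sequence and whose main transcripts lack a polyA tail, 12 were higher in Dnmt3L KO and 10 in Pld6 KO, and between the controls 13 were higher in Dnmt3L Het and 2 in Pld6 WT. Of 30 collagen genes, 2 were higher in Dnmt3L KO and 3 in Pld6 KO, while 12 were higher in Dnmt3L Het and 1 in Pld6 WT. Of 104 ribosomal protein genes, 2 were higher in Dnmt3L KO and 4 in Pld6 KO, and 3 and 2 between the controls.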
